A study of Rattus norvegicus with 4 samples.

Results

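The miRNA content of exosomes released by H9c2 cells under normoxia was compared with that of the normoxic cells themselves. Each library of the deposited table was divided by its own sum, so that every miRNA was expressed as a share of the miRNA reads of its library, and the exosome share was set over the cell share across all 765 rows. Of these 765 rat mature miRNAs, 339 were listed above 0 in at least 1 of the normoxic libraries, 73 in both, 265 in cells only and 1 in exosomes only, and 426 were listed in neither. The comparison uses 2 of the 4 libraries of the study, which also holds hypoxic exosomes and hypoxic cells.

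H9c2 is a cardiomyoblast line from embryonic rat heart, and the labels give no genetic change to it. The normoxic exosomes came from the conditioned medium of these cells by stepwise centrifugation, filtration and ultracentrifugation, and the normoxic cells were collected after 48 h of culture in air with carbon dioxide. Both groups shared a medium with foetal bovine serum that had been depleted of exosomes by ultracentrifugation. The hypoxic groups were cultured for 48 h in a hypoxic chamber. Each group had 1 library, so the differences below have no replicate check and carry no p-value. The methods mention repeats at RNA extraction, and whether a library stands for several extractions is not clear from them.

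Exosomes are small vesicles that form inside endosomes and leave the cell when these fuse with the plasma membrane. They carry proteins, lipids and RNAs of the parent cell, miRNAs among them, and can hand them on to other cells. A miRNA is a short RNA that guides Argonaute proteins to messenger RNAs, chiefly by pairing of its seed, bases 2 to 8 counted from its 5′ end, and thereby lowers their translation or stability.

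The deposited unit is RPM, reads on a per-library scale set by the authors. Within a library all non-zero values were whole multiples of the same step (to within 0.1 read), and the smallest was 10 steps, so that 1 step was read as 1 read and miRNAs with fewer than 10 reads are listed at 0. On this reading exosomes had 13598 miRNA reads of the 11866514 reads behind the RPM scale, or 0.115% (95% exact binomial interval 0.113% to 0.117%). Cells had 5310302 miRNA reads of 10404866, or 51.0% (51.0% to 51.1%). The miRNA fraction of the reads behind the scale was thus 445-fold lower in exosomes. Which reads set the scale is not given, and the other 99.9% of those of exosomes are not analysed here. Intervals of the ratios below are 95% exact (Clopper-Pearson) ones, which cover counting error only. Reads made by PCR are not independent molecules. A share says how the miRNAs of a library divide among themselves, and neither the number of vesicles nor the RNA in each can be told from it.

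The mature sequences of the miRNAs that carry the comparison are given 5′ to 3′ from RefSeq (rat assembly GRCr8), with the seed in capitals. A sequence was matched by name for 312 of the 339 miRNAs listed in either library and for 65 of the 73 listed in both. The first set holds 7 miRNAs that were abundant in exosomes and had a higher share there than in cells.
miR-22-3p: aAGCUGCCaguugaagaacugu
miR-146a-5p: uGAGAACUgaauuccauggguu
miR-423-5p: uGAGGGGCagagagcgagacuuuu
miR-129-5p: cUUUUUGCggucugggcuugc
miR-378a-3p: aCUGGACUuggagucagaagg
miR-3557-5p: gCCUUCUGacuccaaguccagu
miR-122-5p: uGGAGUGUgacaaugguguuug
The second set holds miRNAs with a lower share in exosomes than in cells, and let-7f-5p and let-7c-5p stand for the shared seed of the let-7 family.
miR-21-5p: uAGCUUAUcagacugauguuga
miR-199a-5p: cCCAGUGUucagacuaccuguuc
let-7f-5p: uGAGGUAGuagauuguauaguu
let-7c-5p: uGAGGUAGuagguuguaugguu
miR-10a-5p: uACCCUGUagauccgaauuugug
miR-125b-5p: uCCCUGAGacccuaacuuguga
miR-146b-5p: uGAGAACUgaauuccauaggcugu
The third set holds the 3 most abundant miRNAs of cells that were listed at 0 in exosomes.
miR-191a-5p: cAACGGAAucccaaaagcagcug
miR-29a-3p: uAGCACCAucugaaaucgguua
miR-103-3p: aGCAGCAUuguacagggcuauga
In GRCr8 the mature miR-22-3p lies at chr10:60805387-60805408 on the plus strand, miR-146a-5p at chr10:28350053-28350074 on the minus strand and miR-423-5p at chr10:62412317-62412340 on the minus strand. The mature miR-21-5p lies at chr10:71902653-71902674 on the minus strand, miR-199a-5p of the Mir199a2 hairpin at chr13:77116255-77116277 on the plus strand and miR-191a-5p at chr8:118142641-118142663 on the plus strand.

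On the share scale, 31 of the 73 miRNAs listed in both libraries were enriched in exosomes, with a ratio of exosome to cell share above 2 (42.5%), and 22 were depleted, with a ratio below 0.5 (30.1%). The other 20 lay within 2-fold. The median ratio of the 73 was 1.35, and ratios ran from 0.0454 (miR-21-5p) to 1025 (miR-486). The enriched miRNAs together made up 83.6% of the miRNA reads in exosomes and 3.60% in cells, whereas the depleted ones made up 9.18% in exosomes and 83.0% in cells. Counting error left 28 of the 31 with an interval above 2 throughout and 19 of the 22 with one below 0.5 throughout, and the interval held 1 for 11 of the 73. Just inside the upper threshold was miR-128-3p with a ratio of 2.06, and just outside it miR-328a-3p with 1.93. Just inside the lower threshold was let-7b-5p with 0.451, and just outside it miR-92a-3p with 0.505.

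These counts depend on the scale. On RPM as deposited every ratio is 445-fold smaller, so that 1 miRNA, miR-486, stayed above 2, 68 of the 73 lay below 0.5, and only miR-486 and miR-127-3p were above 1. With miR-21-5p left out of both sums the split was 26 enriched and 30 depleted, with the median ratio set to 1 it was 28 and 24, and scaling with a trimmed mean of M values gave 24 and 40. Scaling without miR-21-5p multiplied every ratio by 0.463 (log2 -1.11), because this miRNA alone held more than the rest of the cell library together.

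**Figure D1:**
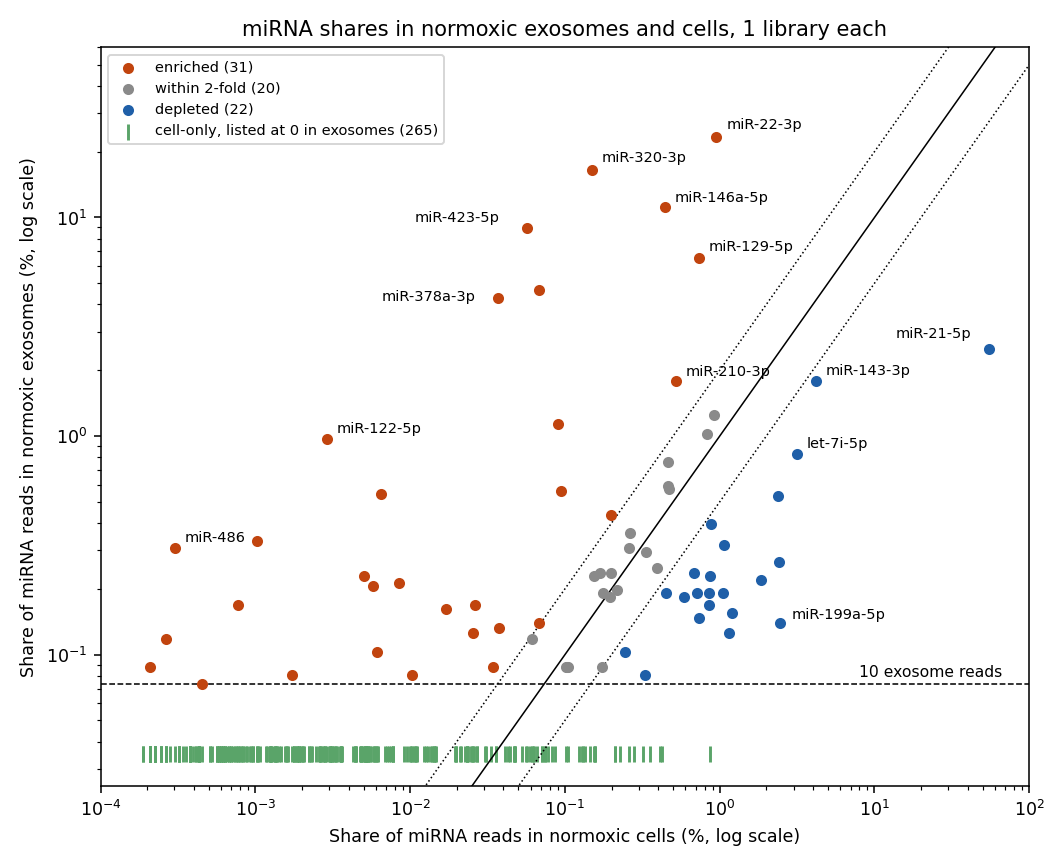
Share of miRNA reads in normoxic exosomes (vertical axis, %) against that in normoxic cells (horizontal axis, %), both on log scales, 1 point per miRNA. The solid line marks equal shares, the dotted lines a ratio of 2 and 0.5, and the dashed line the share of 10 reads in exosomes. The 31 enriched miRNAs lie above the band and the 22 depleted ones below it, and green ticks give the cell shares of the 265 miRNAs listed at 0 in exosomes. On RPM as deposited all points but 2 would lie below the line of equality.

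The exosome library was shallow in miRNAs, and this limited which miRNAs could be called at all. A miRNA needed 3906 reads in cells, a share of 0.0735%, for an equal share in exosomes to give the 10 reads at which it would be listed. Of the 339 miRNAs, 74 reached this level. Among these 74, 8 were enriched (10.8%), 19 were within 2-fold, 22 were depleted (29.7%) and 25 were listed at 0 in exosomes (33.8%). The other 23 enriched miRNAs were less abundant in cells and could be listed in exosomes only if their share was higher there, so that their count is no measure of how often miRNAs were enriched. All 22 depleted miRNAs had at least 13061 reads in cells. A ratio below 0.5 could be listed or bounded only at more than 20 expected reads, which not all of the 74 had.

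The 8 enriched miRNAs that an equal share would also have listed were miR-320-3p, miR-22-3p, miR-129-5p, miR-146a-5p, miR-125b-1-3p, miR-210-3p, miR-151-3p and miR-532-5p. They held 61.4% of the miRNA reads in exosomes and 3.18% in cells. All 8 ratios were below 1 on RPM as deposited.

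The most abundant miRNA in exosomes was miR-22-3p, which is abundant in heart and skeletal muscle and takes part in hypertrophic growth of heart muscle in the mouse. It had 3165 reads in exosomes (267 RPM, 23.3% of miRNA reads) and 50568 reads in cells (4860 RPM, 0.952%). The ratio of shares was 24.4 (95% interval 23.6 to 25.3), while the RPM was lower in exosomes. Although it was the twelfth miRNA of cells by abundance, it was the only one of the 12 leading miRNAs of cells that was enriched in exosomes.

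miR-320-3p, whose hairpin is cut by Dicer without prior cutting by Drosha in the mouse, had 2252 reads in exosomes (16.6%) and 7904 reads in cells (0.149%). Its ratio was 111 (106 to 117). Of the 3 other miRNAs on the list of those made without Drosha, miR-484 (541 reads) and miR-877 (55 reads) were listed in cells only, below the level the exosome depth could show, and miR-1224 was in neither library.

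miR-146a-5p and miR-146b-5p, which dampen inflammatory signalling through the adaptors IRAK1 and TRAF6, moved apart. miR-146a-5p had 1512 reads in exosomes (11.1%) and 23562 reads in cells (0.444%), a ratio of 25.1 (23.8 to 26.4). miR-146b-5p had 25 reads in exosomes (0.184%) and 31315 reads in cells (0.590%), a ratio of 0.312 (0.202 to 0.460). Cells therefore held more miR-146b-5p than miR-146a-5p, and exosomes the reverse order by far. As their sequences above show, both carry the seed GAGAACU. Counted from 1 at the 5′ end of miR-146a-5p, they differ over the 22 shared positions by G18A and U21C, with the base of miR-146a-5p written first, and miR-146b-5p is 2 bases longer. Taken as 1 seed family, they made up 11.3% of miRNA reads in exosomes and 1.03% in cells.

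miR-423-5p, reported at raised levels in the plasma of human patients with heart failure, had 1221 reads in exosomes (8.98%) and 3031 reads in cells (0.0571%), a ratio of 157 (147 to 168). The other arm of its hairpin, miR-423-3p, had 42 reads in exosomes (0.309%) and 13676 reads in cells (0.258%), a ratio of 1.20 (0.864 to 1.62). The arms of this hairpin thus differed by 131-fold in their ratios, and the more abundant arm was miR-423-5p in exosomes and miR-423-3p in cells. Because both arms are set against each other within the same libraries, this difference is the same on every scaling.

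miR-129-5p, an miRNA of neurons, had 883 reads in exosomes (6.49%) and 38883 reads in cells (0.732%), a ratio of 8.87 (8.29 to 9.48). miR-210-3p, which is induced by the hypoxia-inducible factors, had 242 reads in exosomes (1.78%) and 27572 reads in cells (0.519%), a ratio of 3.43 (3.01 to 3.89). miR-125b-1-3p had 154 reads in exosomes (1.13%) and 4779 reads in cells (0.0900%), a ratio of 12.6 (10.6 to 14.8). This arm was enriched although miR-125b-5p, the main arm of both miR-125b hairpins, was among the most depleted miRNAs (ratio 0.119).

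miR-378a-3p, which is made from an intron of the gene of PGC-1β and acts in energy metabolism, had 585 reads in exosomes (4.30%) and 1959 reads in cells (0.0369%), a ratio of 117 (106 to 128). miR-3557-5p had 631 reads in exosomes (4.64%) and 3605 reads in cells (0.0679%), a ratio of 68.4 (62.7 to 74.4). The sequences printed above are reverse complements over 21 bases, and in GRCr8 both lie at the same place on opposite strands. Whether the counting used strand is not given in the sources used here, and reads of the pair therefore cannot be told apart. Summed over both, the group remains enriched, since each member was.

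**Figure D2:**
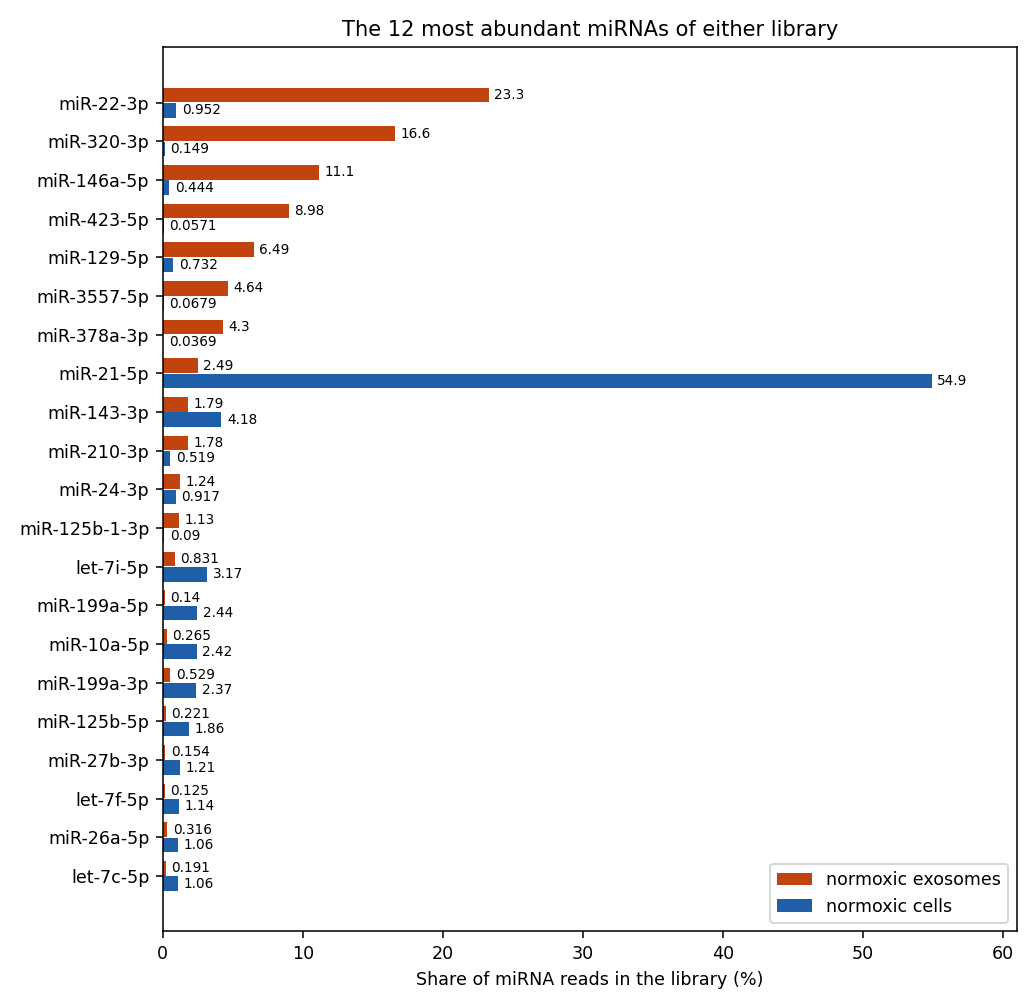
Share of miRNA reads (%, horizontal axis) of the miRNAs that were among the 12 most abundant of either library, with normoxic exosomes above normoxic cells for each miRNA, 1 library each. miR-22-3p leads exosomes at 23.3% and miR-21-5p leads cells at 54.9%.

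The leading miRNAs of both libraries had little in common. The 3 most abundant held 51.0% of the miRNA reads in exosomes and 62.2% in cells, and the 12 most abundant held 83.8% in exosomes and 76.7% in cells. In exosomes 3 miRNAs, and in cells 1, sufficed for the first 50% of reads, but 21 in exosomes and 33 in cells were needed for 90%. The lists of 12 shared miR-22-3p, miR-21-5p and miR-143-3p. Of the 12 of exosomes, 9 were enriched, and of the 12 of cells, 11 were depleted, beside 42.5% enriched and 30.1% depleted of all 73. Each list was picked by a share that forms part of the ratio, so these counts were partly fixed by the choice. The 12 of cells held 30.3% of exosome reads, mostly through miR-22-3p.

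miR-21-5p, a growth and survival miRNA of cardiac and other cells, had the lowest ratio of the 73. It had 339 reads in exosomes (28.6 RPM, 2.49%) and 2914783 reads in cells (280140 RPM, 54.9%), a ratio of 0.0454 (0.0407 to 0.0505). It was still the eighth miRNA of exosomes by abundance. The next lowest was miR-199a-5p, of the miR-199a and miR-214 cluster of mesenchymal cells, with 19 reads in exosomes (0.140%) and 129721 reads in cells (2.44%), a ratio of 0.0572 (0.0344 to 0.0893). The opposite arm, miR-199a-3p, had 72 reads in exosomes and 125797 reads in cells, a ratio of 0.224 (0.175 to 0.281), and the ratios of the arms differed by 3.91-fold. miR-214-3p of the same cluster had 25 reads in exosomes and 10408 reads in cells, a ratio of 0.938 (0.607 to 1.39) whose interval holds 1.

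The let-7 family, which promotes differentiation and represses growth genes such as Hmga2, had lower shares in exosomes for all 6 members listed there. Every other scaling used lowers all ratios, so none could have moved these members above 1. Of its 9 members 6 were depleted and 3 (let-7d-5p, let-7e-5p and miR-98-5p) were listed in cells only, of which an equal share would have listed 2. Of the 74 miRNAs that the depth could show, 29.7% were depleted and 33.8% were in cells only. The family made up 1.96% of miRNA reads in exosomes and 8.26% in cells, and the median ratio of the 6 was 0.243, beside 1.35 over all 73 miRNAs. The value of 1.35 includes 23 enriched miRNAs that could be listed only at a higher share in exosomes. Of the 12 most abundant miRNAs of cells, let-7i-5p, let-7f-5p and let-7c-5p among them, 11 were depleted. A low ratio was thus not particular to the let-7 family among miRNAs abundant in cells. The most abundant member, let-7i-5p, had 113 reads in exosomes and 168491 reads in cells, a ratio of 0.262 (0.216 to 0.315). The lowest ratio in the family was that of let-7f-5p, with 17 reads in exosomes and 60771 reads in cells (0.109, 0.0636 to 0.175). The family's members differ from each other by as little as 1 base, so that reads could be shared out between them in counting, which would not change the sum.

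The miRNAs that the study transfected into cells lay on different sides of this exosome to cell ratio. The study chose them for higher levels in hypoxic than in normoxic exosomes and a part in apoptosis, which this ratio does not measure. Besides miR-21-5p and let-7i-5p, which were depleted, and miR-378a-3p, which was enriched, miR-152-3p had 78 reads in exosomes (0.574%) and 25039 reads in cells (0.472%), a ratio of 1.22 (0.961 to 1.52). Its relatives miR-148a-3p (1.37, 1.01 to 1.81) and miR-148b-3p (0.842, 0.435 to 1.47) were also within 2-fold, and all 3 were below 1 without miR-21-5p in the sums.

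**Figure D3:**
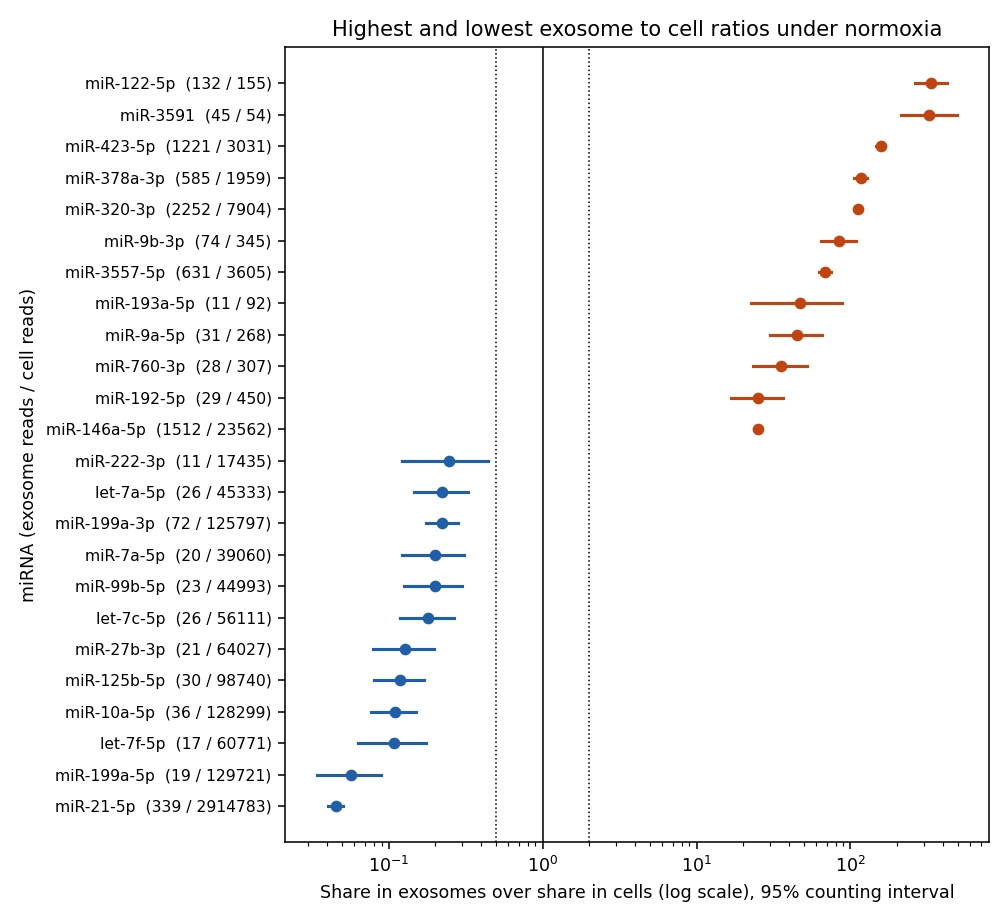
Ratio of exosome share to cell share (horizontal axis, log scale) for the 12 highest and 12 lowest of the miRNAs listed in both normoxic libraries with at least 50 reads in exosomes or cells. Points give the ratio, bars the 95% counting interval, brackets the reads in exosomes and then in cells, the solid line a ratio of 1 and the dotted lines 2 and 0.5. The values run from 333 for miR-122-5p down to 0.0454 for miR-21-5p, and on RPM as deposited all of them are below 1.

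Other abundant miRNAs of cells were depleted as well. miR-10a-5p, encoded within a Hox gene cluster, had 36 reads in exosomes and 128299 reads in cells, a ratio of 0.110 (0.0767 to 0.152). Its relatives miR-125b-5p, with 30 reads in exosomes and 98740 reads in cells (0.119, 0.0800 to 0.169), and miR-99b-5p, with 23 reads in exosomes and 44993 reads in cells (0.200, 0.127 to 0.2996), were depleted too, miR-10b-5p and miR-125a-5p were at 0 in exosomes and miR-100-5p was within 2-fold (1.26). The exception in this family was miR-99a-5p, with 14 reads in exosomes and 324 reads in cells, a ratio of 16.9 (9.12 to 28.7), which on RPM as deposited was 0.0379.

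Within the clusters of miR-23, miR-24 and miR-27, each of which is made from a common primary transcript, the members did not share a ratio. miR-27a-3p (26 reads in exosomes and 38032 in cells, ratio 0.267) and miR-27b-3p (21 reads in exosomes and 64027 in cells, ratio 0.128) were depleted. miR-24-3p (169 reads in exosomes and 48719 in cells, ratio 1.35) and miR-23a-3p (40 reads in exosomes and 17729 in cells, ratio 0.881) were within 2-fold. The miR-143 and miR-145 cluster of smooth muscle was similar, with miR-143-3p at 0.430 (0.377 to 0.487; 244 reads in exosomes and 221837 in cells) and miR-145-5p at 1.41 (0.961 to 1.99; 32 reads in exosomes and 8887 in cells). In the miR-221 and miR-222 cluster, the ratio was 0.246 (0.123 to 0.441) for miR-222-3p, with 11 reads in exosomes and 17435 in cells, and 1.23 (1.03 to 1.45) for miR-221-3p, with 139 and 44246. These differences between members of a cluster are the same on every scaling.

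The 265 miRNAs listed in cells only held 7.36% of the miRNA reads in cells. For 240 of them an equal share would have given fewer than 10 exosome reads, and their absence was not detectable at this depth. For the other 25 an equal share would have given 10 reads or more, and 13 of these would have reached 20 or more, which bounds their observed ratio below 0.5. This bound leaves out counting error, and those near 20 expected reads could have a higher ratio. With the 22 depleted miRNAs, 35 of the 74 miRNAs that the depth could show (47.3%) had a ratio or an upper bound below 0.5. Those of the 74 with 20 expected reads or fewer could not enter this count.

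The most abundant of the cell-only miRNAs was miR-191a-5p, with 45758 reads in cells. An equal share would have given 117 reads in exosomes, so that fewer than 10 reads make its share at least 11.7-fold lower. miR-29a-3p, which represses collagens and other matrix genes, had 22551 reads in cells and was at least 5.77-fold lower. Its reverse complement over 18 bases, miR-3556a, was listed in exosomes (ratio 0.423), and whether the counting used strand is not given. miR-103-3p, encoded within pantothenate kinase genes, had 21854 reads in cells and was at least 5.60-fold lower. miR-351-5p (18694 reads in cells), miR-125a-5p (17052), miR-30e-5p (14791), miR-34c-5p (13805), miR-3596d (12029), miR-10b-5p (11158), miR-20a-5p (11134), miR-450a-5p (8365) and miR-30c-5p (8354) followed, with lower bounds from 4.79-fold down to 2.14-fold. These bounds are set at 10 reads in the exosome library, assume the share scale and leave out counting error. Of these miRNAs, miR-3596d is the reverse complement of let-7f-5p over 20 bases.

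Some families had all their listed members at 0 in exosomes, as had 78.2% of all 339 miRNAs and 33.8% of the 74 that the depth could show. All 3 members of the miR-29 family (24539 reads in cells), all 7 of the miR-15 and miR-16 family (11963 reads), both of the miR-103 and miR-107 family (23096 reads) and all 12 of the X chromosome cluster from miR-322 to miR-450 (45357 reads, 0.854% of cell miRNA reads) were in cells only. An equal share would have listed 1, 1, 1 and 3 of these members, in the same order, and for the others the depth could not show a difference. The second and the fourth of these groups share miR-322-5p and miR-503-5p. miR-3556a, the reverse complement of miR-29a-3p, was listed in exosomes with 26 reads. In the miR-15 and miR-16 family, which represses Bcl2 and cyclins, miR-16-5p led with 5375 reads in cells, and in the X chromosome cluster miR-351-5p led. Of the 9 members of the miR-17-92 and miR-106b-25 clusters, which promote proliferation, 7 were in cells only (3 of them abundant enough to be listed at an equal share), a share close to the 78.2% of all miRNAs, and miR-25-3p (1.19, 0.814 to 1.68) and miR-92a-3p (0.505, 0.261 to 0.883) were within 2-fold.

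In the miR-30 family, which limits autophagy and connective tissue growth factors in heart cells, miR-30d-5p was depleted (32 reads in exosomes and 36443 in cells, 0.343, 0.235 to 0.484), miR-30a-5p was within 2-fold (34 reads in exosomes and 20860 in cells, 0.637, 0.441 to 0.890) and 3 members were in cells only. miR-26a-5p was depleted (43 reads in exosomes and 56284 in cells, 0.298, 0.216 to 0.402), and miR-26b-5p was in cells only. In the miR-181 family miR-181a-5p (0.909) and miR-181b-5p (1.09) were within 2-fold, 1 member was in cells only and 1 in neither library. Of the 4 members of the miR-130 and miR-301 family, 2 were in cells only and 2 in neither. Over all 339 miRNAs, 78.2% were in cells only. An equal share would have listed 2 of the 3 cell-only members of the miR-30 family. It would have listed none of the cell-only members of the other families of this paragraph, for which the depth could not show a difference.

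**Figure D4:**
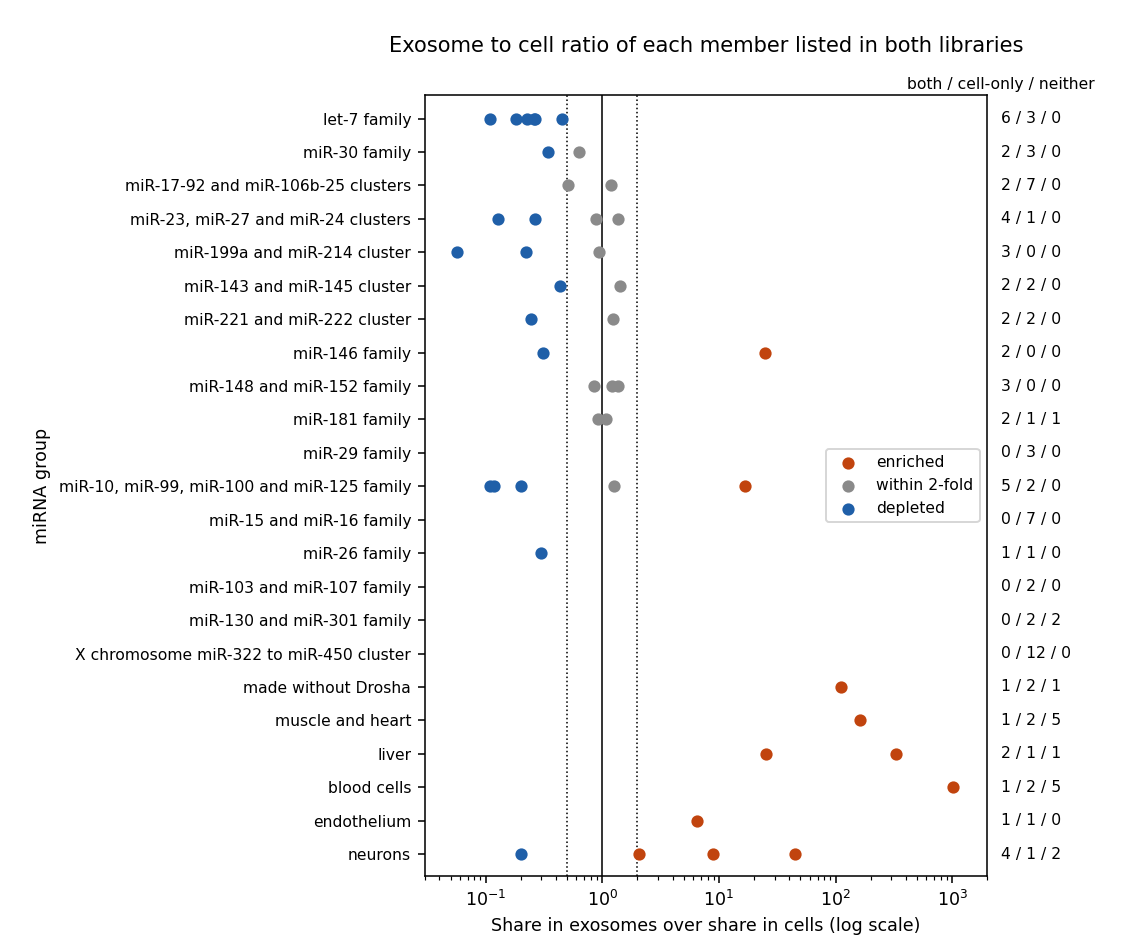
Ratio of exosome share to cell share (horizontal axis, log scale) of every member of 23 miRNA groups that was listed in both normoxic libraries, coloured by class, with the numbers of members listed in both libraries, in cells only and in neither at the right. let-7 members all lie below 0.5, whereas the miR-146 family spans 0.312 to 25.1; on RPM as deposited only miR-486 of the blood cell group is above 1.

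The highest ratios belonged to miRNAs that were scarce in cells. The listing minimum of 10 exosome reads largely fixed this in advance, since miRNAs scarce in cells could be listed only at high ratios. An equal share would have given miR-486 0.041 exosome reads, miR-127-3p 0.0359 and miR-3574 0.0282. The counts that follow therefore do not measure how strongly miRNAs were enriched. Of the 31 enriched miRNAs, 20 exceeded a ratio of 10 and 10 one of 100, and 5 had fewer than 50 reads in cells. miR-486, a miRNA of red blood cells and muscle, had 42 reads in exosomes (3.54 RPM) and 16 reads in cells (1.54 RPM), a ratio of 1025 (564 to 1953). miR-127-3p and miR-3574 followed with ratios of 446 (16 reads in exosomes and 14 in cells) and 426 (12 reads in exosomes and 11 in cells), and with miR-1b (219) they are named here after their values were seen. miR-3574 is the reverse complement of miR-210-3p over 22 bases.

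Several miRNAs that mark other tissues were among these, and their lists were checked as a whole. No member of the liver, blood cell or endothelial lists would have reached 10 exosome reads at an equal share. An equal share would have given miR-122-5p 0.397 reads and miR-192-5p 1.15. Members listed in exosomes passed the minimum only through a high share there, so that their enrichment is no separate result. For members at 0 in exosomes the depth could not show a difference. Of 4 liver miRNAs, miR-122-5p had 132 reads in exosomes (0.971%) and 155 reads in cells (0.00292%), a ratio of 333 (262 to 422), miR-192-5p had 29 reads in exosomes and 450 in cells (25.2, 16.7 to 36.6), miR-194-5p was in cells only with 266 reads and miR-122-3p was in neither. The list summed to 161 reads in exosomes (1.18%) and 871 reads in cells (0.0164%). miR-3591, with 45 reads in exosomes and 54 in cells (325, 214 to 492), is the reverse complement of miR-122-5p over 20 bases and lies opposite to it.

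Of 8 blood cell miRNAs only miR-486 was listed in exosomes, and the defining red cell miRNA miR-451-5p was at 0 in exosomes and had 13 reads in cells. The list summed to 42 reads in exosomes (0.309%) and 52 reads in cells (0.000979%). Of the endothelial pair, miR-126a-3p had 23 reads in exosomes and 1393 in cells (6.45, 4.07 to 9.71) and miR-126a-5p was in cells only with 118 reads. Of 7 miRNAs of neurons, miR-129-5p, miR-9a-5p (31 reads in exosomes and 268 in cells, 45.2, 30.1 to 65.7) and miR-128-3p (19 reads in exosomes and 3610 in cells) were enriched, miR-7a-5p was depleted (20 reads in exosomes and 39060 in cells, 0.200, 0.122 to 0.309), miR-132-3p was in cells only, and miR-9a-3p and the defining miR-124-3p were in neither. Of the neuron list, an equal share would have listed miR-129-5p and miR-7a-5p, but not miR-9a-5p, miR-128-3p or miR-132-3p. What part the serum in the medium or miRNAs of other cells had in the values of these lists was not tested.

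The markers of the line's own lineage were scarce in both libraries. Of 8 miRNAs of muscle and heart, miR-1-3p had 10 reads in exosomes and 24 reads in cells (ratio 163, 69.4 to 353), miR-206-3p (34 reads) and miR-499-5p (277 reads) were in cells only, and miR-133a-3p, miR-133b-3p, miR-208a-3p and the other 2 were in neither. The list summed to 10 reads in exosomes (0.0735%) and 335 reads in cells (0.00631%). No member would have reached 10 exosome reads at an equal share, which would have given miR-1-3p 0.0615 reads. miR-1-3p and miR-1b differ at 1 base and may share reads. The only miRNA listed in exosomes and not in cells was miR-3586-5p, with 10 reads.

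Opposite strands and near-identical sequences limit the naming of some members. Among the 339 miRNAs, 22 pairs were reverse complements over 15 or more bases, and these pairs held 9 of the 31 enriched, 6 of the 22 depleted and 23 of the 265 cell-only miRNAs. miR-9b-3p (74 reads in exosomes and 345 in cells, ratio 83.8) is the reverse complement of miR-9a-5p over 18 bases. miR-3556a (26 reads in exosomes and 24004 in cells, ratio 0.423) is that of miR-29a-3p over 18 bases, which was at 0 in exosomes. Without any of these miRNAs, 22 were enriched and 16 depleted.

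Both arms of a hairpin were listed in exosomes for 4 of 49 pairs of arms with at least 1 arm there. Besides the arms of miR-423 and miR-199a, miR-151-5p (7.91, 3.93 to 14.3) and miR-151-3p (5.92, 4.66 to 7.43) were both enriched, and miR-24-3p (1.35) and miR-24-2-5p (0.872, 0.450 to 1.53) were both within 2-fold. In the other 45 pairs the second arm was at 0 in exosomes, and for 1 of these arms, miR-129-1-3p with 3976 reads in cells, an equal share would have given 10 reads.

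Depleted miRNAs had the lowest median GC content of the classes. The median GC content was 48.8% for the enriched miRNAs (26 with a sequence) and 41.7% for the depleted ones (21 with a sequence), beside 47.6% for all 312 matched miRNAs of cells. Among the 70 matched miRNAs that the depth could show, it was 53.6% for the 6 enriched, 48.9% for the 18 within 2-fold, 41.7% for the 21 depleted and 45.5% for the 25 cell-only miRNAs. The first base was U in 12 of the 26 enriched (46.2%) and 16 of the 21 depleted miRNAs (76.2%), beside 41.03% of all miRNAs of cells. Among the 70 that the depth could show, it was U in 1 of the 6 enriched (16.7%) and 16 of the 21 depleted miRNAs. It was U in 12 of the 25 cell-only ones (48.0%), beside 52.9% of all 70. All classes had a median length of 22 bases. Members of a family share their sequence, so these miRNAs are not independent, and ligation and PCR can also vary with base composition, which was not tested. The depleted class holds 6 let-7 members, which all begin with U. Most of the 26 enriched miRNAs were listed only through their high exosome share. Of the enriched miRNAs that the depth could show, miR-320-3p and miR-151-3p had no matched sequence.

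Short motifs linked to exosomal sorting were counted in the strand of the mature miRNA only. GGAG, which hnRNPA2B1 binds in human T cells, was in 4 of the 26 enriched (15.4%) and in none of the 21 depleted miRNAs, beside 8.97% of the matched miRNAs of cells and 7.98% of those of the whole table. Most of these enriched miRNAs were listed only through their high exosome share. Among the 70 that the depth could show, GGAG was in 1 of the 6 enriched and none of the 21 depleted miRNAs. GGAG was in 2 of the 25 cell-only ones, beside 5.71% of all 70. Of the sequences above, miR-122-5p and miR-378a-3p hold it. GGCU, which SYNCRIP binds in mouse hepatocytes, was in 5 of the 26 enriched (19.2%) and 5 of the 21 depleted miRNAs (23.8%), beside 10.9% of those of cells and 10.7% of those of the table. Among those that the depth could show, it was in 3 of the 6 enriched and 5 of the 21 depleted miRNAs. It was in 1 of the 25 cell-only ones, beside 15.7% of all 70. The order of enriched and depleted thus turns with the set used, and 6 sequences are too few to read a preference from. Neither run of letters is present in miR-22-3p, miR-146a-5p or miR-423-5p.

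The same ratio under hypoxia was set beside that under normoxia, from libraries that the normoxic comparison does not use. Hypoxic exosomes had 108860 miRNA reads and hypoxic cells 3578371. Of 71 miRNAs listed in both libraries of both conditions, 60 fell into the same class: 26 were enriched, 19 depleted and 15 within 2-fold under both. Part of this agreement was fixed in advance, because miRNAs scarce in cells could be listed in exosomes only at a higher share there. This held under both conditions, as for miR-486 and miR-122-5p, and also enters the correlations that follow. The log2 ratios had a Spearman correlation of 0.916 and a Pearson correlation of 0.922 across these 71 miRNAs, which share base composition, processing and, under both conditions, the same cell line, and this is given as a description. miR-21-5p had a ratio of 0.0454 under normoxia and 0.0449 under hypoxia, miR-22-3p of 24.4 and 15.2, miR-146a-5p of 25.1 and 37.8, and miR-423-5p of 157 and 64.3, in the same order of conditions.

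The hypoxic exosome library was deeper in miRNAs, but it is another condition and does not show what normoxic exosomes held. Of the 265 miRNAs in normoxic cells only, 67 (25.3%) were listed in hypoxic exosomes. Of the 25 among them that an equal share would have listed in normoxic exosomes, 17 were listed in hypoxic exosomes, and 16 of these had a hypoxic ratio below 0.5, as with miR-191a-5p (0.111), miR-29a-3p (0.0213) and miR-103-3p (0.0300). The exception was miR-28-3p, with 4403 reads in normoxic cells and a hypoxic ratio of 1.02. The other 8, among them miR-20a-5p, miR-30c-5p and miR-16-5p, were at 0 in hypoxic exosomes too. miR-3556a, the reverse complement of miR-29a-3p, had a hypoxic ratio of 0.300.

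**Figure D5:**
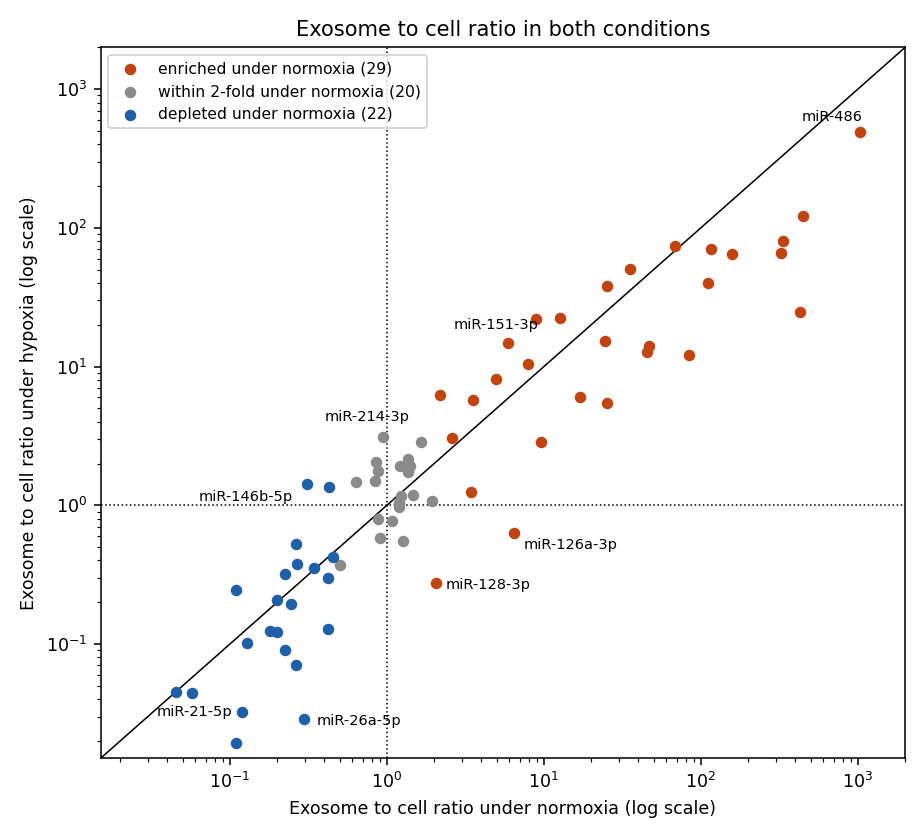
Ratio of exosome share to cell share under hypoxia (vertical axis, log scale) against that under normoxia (horizontal axis, log scale) for the 71 miRNAs listed in all 4 libraries, coloured by class under normoxia. The solid line marks equal ratios and the dotted lines a ratio of 1. Most points keep their side of 1 on the share scale, whereas miR-126a-3p (6.45 under normoxia and 0.631 under hypoxia) and miR-146b-5p (0.312 and 1.43) do not; 1 library per group, no interval drawn.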

How the data were processed

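Small RNA was sequenced from normoxic and hypoxic H9c2 cells and their exosomes, 1 library each, from fragments of 18 to 30 nucleotides. The authors deposited RPM for 765 rat mature miRNAs. The processing notes of the submitters name Rnor 6.0. Aligner, counter, strand use and the denominator of the RPM: not given in the sources used here. Steps of the RPM were read as reads (all values whole within 0.1 read), for intervals and minimums only, and no count model was fitted. Enriched and depleted miRNAs had a ratio of shares above 2 or below 0.5, and a list was described by its counts and median.

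Named miRNAs were the 12 highest and 12 lowest ratios with at least 50 reads in either library, the 12 leading miRNAs of each library and of the cell-only class, exosome-only ones, those the study transfected, up to 4 members of each of 23 lists and those beside a threshold. Members, rule and lists were chosen with earlier results of these data known. Computation used pandas 2.3.3, scipy 1.17.1 and numpy 2.4.6 in Python 3.11.15, with plots by matplotlib 3.10.9, and the ratios and intervals were tested on simulated data.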

Additional observations from a re-analysis of the deposited data

Results flagged for a closer look

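For 6 miRNAs the counting intervals of the exosome to cell ratio lay wholly on opposite sides of 1 under normoxia and hypoxia. Each ratio rests on 1 library a side, and the difference between conditions was not tested. Higher under normoxia were miR-126a-3p, with 6.448 (4.074 to 9.715) under normoxia and 0.6309 (0.3838 to 0.9795) under hypoxia, miR-128-3p, with 2.055 (1.236 to 3.214) and 0.2762 (0.1748 to 0.4154), and miR-100-5p, with 1.265 (1.003 to 1.575) and 0.5517 (0.4942 to 0.614). Lower under normoxia were miR-30a-5p, with 0.6365 (0.4407 to 0.8898) under normoxia and 1.477 (1.374 to 1.586) under hypoxia, miR-143-3p, with 0.4295 (0.3773 to 0.487) and 1.356 (1.321 to 1.391), and miR-146b-5p, with 0.3118 (0.2017 to 0.4603) and 1.427 (1.29 to 1.575).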

How the results depend on the processing

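With 1 library per group, leaving out a replicate was not possible. No paired analysis was possible because each group has 1 library. On RPM as deposited the counts were 1 enriched and 68 depleted. By the trimmed mean of M values 40 were depleted, at 4-fold 12 were depleted, with at least 20 reads in both libraries 20 were enriched, and with at least 50 reads 13 were enriched and 5 depleted. A pseudocount of 1 read over all 339 miRNAs gave 183 enriched and 86 depleted, and one of 10 reads 256 enriched. Since the exosome library is far shallower, a pseudocount makes cell-only miRNAs with few cell reads enriched by construction. The counts with a pseudocount are therefore no measure of enrichment. Among miRNAs expected at 10 exosome reads or more, an alternative chosen after seeing the data, 8 were enriched. With at least 500 reads in cells 80 miRNAs were cell-only. Of the cell-only miRNAs that equal shares would list, there were 44 without miR-21-5p in the sums and 13 at a minimum of 20 reads.

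Of 41 named miRNAs that were enriched or depleted, 20 moved across a ratio of 1 on RPM as deposited: miR-3591 0.731, miR-122-5p 0.747, miR-423-5p 0.353, miR-1-3p 0.365, miR-378a-3p 0.262, miR-320-3p 0.2498, miR-9b-3p 0.188, miR-3557-5p 0.153, miR-193a-5p 0.105, miR-9a-5p 0.101, miR-760-3p 0.0800, miR-192-5p 0.0565, miR-146a-5p 0.0563, miR-22-3p 0.0549, miR-99a-5p 0.0379, miR-125b-1-3p 0.0283, miR-129-5p 0.0199, miR-126a-3p 0.0145, miR-210-3p 0.00770 and miR-128-3p 0.00462. Of these 41, only miR-128-3p did so without miR-21-5p (0.951) and with the trimmed mean of M values (0.654), and none with the median ratio set to 1. Every one of these scalings lowers all ratios, so only ratios above 1 could cross and no depleted miRNA could. Of 15 named miRNAs within 2-fold, 9 moved across 1 on each of the first 3 scalings and 5 with the median ratio set to 1. The 13598 exosome miRNA reads limit every class.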
